A study of Xenopus tropicalis with 15 samples.

Results

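The genes described are 10 non-collagen genes of cartilage and of the sheath around the notochord, chosen by symbol: chad, acan, hapln1, hapln3, matn1, matn3, matn4, sox9, comp and pappa2. Each symbol was carried by 1 of the 34192 gene models in the files, so all 10 were found, and 8 of them had enough counts to be fitted among 18823 tested models (hapln1 and matn1 did not). The genes were picked with comparisons of these same libraries already known. Their differences between groups are therefore given as a description, with the value in each library and no test, and only other genes carry p-values.

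Tail RNA of wild-type Xenopus tropicalis tadpoles was sequenced in 15 libraries, 3 per group. Amputation removed the end of the tail at NF stage 41, when tadpoles were 3 days old, and all were reared at 23 °C. The 0 hpa group (0 hours post amputation) was untreated stump tissue of about 250 µm next to the plane of section. At 24 hpa about 250 µm of tissue was taken from tadpoles kept in 0.1% DMSO, in echinomycin at 0.5 µM, in IWR-1 at 10 µM or in 2-methoxyestradiol (2ME) at 5 µM. 2ME lowers HIF1A protein and also binds tubulin, echinomycin is an antibiotic that keeps HIF1 off its DNA sites, and IWR-1 stabilises Axin and so dampens Wnt signalling. The DMSO group differs from 0 hpa in solvent, in time and in place on the tail at once, and these cannot be told apart. The sources used here do not say whether the compound groups also held DMSO, how many tadpoles made up a sample or what a replicate number stands for, so p-values measure the spread between these samples, which may be technical.

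The tadpole tail is built around a notochord, a rod of vacuolated cells within a sheath of collagen II fibrils and proteoglycans that shares many of its components with cartilage. In cartilage, aggrecan binds hyaluronan through link proteins and holds water, while matrilins, COMP and chondroadherin join the fibrils, the proteoglycans and the cells. In mice SOX9, with SOX5 and SOX6, switches on genes of this matrix in chondrocytes and notochord. PAPPA2 is no structural protein but a secreted protease that cuts IGF-binding proteins and so frees insulin-like growth factors.

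Totals ran from 17.3 to 23.4 M estimated counts per library, and levels are given as CPM (counts relative to library size, scaled by TMM factors). A count of 0 allows up to 0.128 to 0.173 CPM in a library (3 counts, counting error only). This floor is before TMM scaling, with factors of 0.909 to 1.07, so it differs somewhat on the printed scale. Values are mean ± SD over 3 libraries, and log2 ratios are fitted values ± SE. In bulk tissue, fewer cells of a type and less RNA per cell cannot be told apart.

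Notochord and cartilage genes were read beside the list. This shows whether they are detected in the tissue, not which cells express the listed genes. The collagen col2a1, the main fibril of both tissues, stood at 1093 to 4239 CPM in every library, and the notochord genes tbxt and shh, a transcription factor and a signal, were read in all 15 at 3.81 to 12.5 and 14.8 to 52.1 CPM. Other notochord genes were sparse in some groups, with means of 0.135 CPM for not at 0 hpa and 0.826 CPM for chrd.1 with IWR-1. The hypertrophic cartilage collagen col10a1 was at 0 in 13 libraries and at most 0.0496 CPM in the other two, and col11a2 was at 0 in all. The link protein hapln1, the matrilin matn1 and comp, which are abundant in mature mammalian cartilage, stayed under 0.7 CPM throughout. The list as read here was thus carried by hapln3, by matn4 at 0 hpa and with echinomycin, and at lower levels by sox9, chad, acan, matn3 and pappa2. Mean sox9 stood above mean matn4 with DMSO (19.4 and 16.5 CPM), 2ME (22.1 and 12.9 CPM) and IWR-1 (32.3 and 20.7 CPM).

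**Figure D1:**
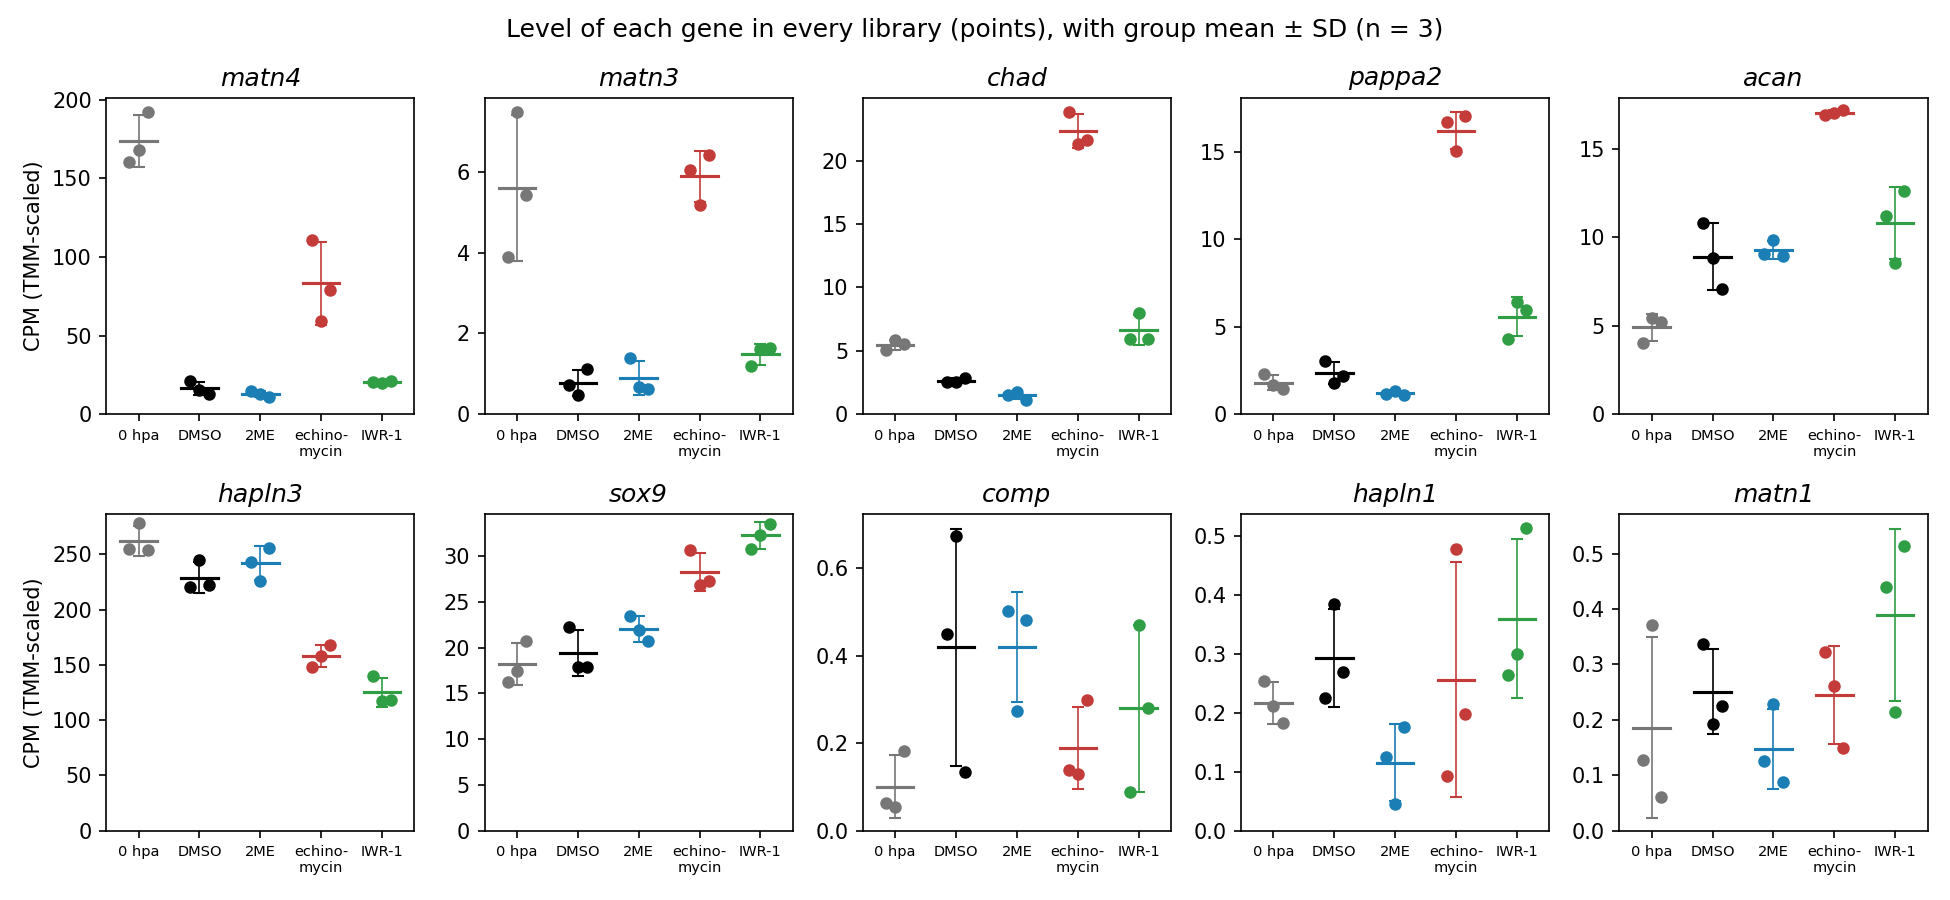
Level of each of the 10 genes in TMM-scaled CPM (vertical axis, from 0, its own scale per gene) in the 3 libraries of each group (points), with the group mean (line) and SD (bar). Echinomycin libraries are highest for chad, pappa2 and acan, 0 hpa libraries for matn4, and comp, hapln1 and matn1 lie at 0.673 CPM or less in every library.

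The matrilins are adaptor proteins that link collagen fibrils and proteoglycans into filaments. matn4 read 160.3, 168 and 192 CPM at 0 hpa and 21.0, 15.6 and 12.99 CPM with DMSO at 24 hpa. The amputated tail thus held 10.5 times as much matn4 at 0 hpa as the regenerating tissue, with no overlap of the libraries (log2 ratio -3.40 ± 0.196). With echinomycin it read 111, 59.2 and 79.2 CPM. That is 5.04 times the DMSO mean, again without overlap (2.34 ± 0.193), and still below all 3 libraries at 0 hpa. The 2ME libraries held 15.01, 12.6 and 11.03 CPM and the IWR-1 libraries 20.7, 20.1 and 21.2 CPM, and both overlapped DMSO (-0.35 ± 0.210 and 0.33 ± 0.201). All 15 matn4 counts were fractional, so the estimation split part of its reads among transcripts, and its absolute level is uncertain to that extent.

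matn3 followed a similar course at lower depth. It read 3.88, 7.47 and 5.41 CPM at 0 hpa and 0.730, 0.481 and 1.12 CPM with DMSO, where its 3 libraries held 13, 10 and 25 counts. Every DMSO library lay below every 0 hpa library (log2 ratio -2.83 ± 0.325). The echinomycin libraries, at 6.05, 5.17 and 6.40 CPM, were 7.56 times the DMSO mean (2.89 ± 0.321) and overlapped the 0 hpa libraries. With IWR-1 matn3 read 1.19, 1.62 and 1.63 CPM, just above the highest DMSO library (0.91 ± 0.362). The 2ME libraries, at 1.38, 0.684 and 0.613 CPM, overlapped DMSO, and the sign of that difference depends on single libraries, turning from 0.20 ± 0.388 to -0.05 without DMSO replicate 2 and to -0.27 without 2ME replicate 1. The third matrilin, matn1, read 0.0608 to 0.513 CPM over all 15 libraries with 1 to 11 counts in each, which is too few to order the groups. A matrilin outside the chosen genes, matn2, singled out after its values were seen, read 2.12 CPM with DMSO and rose to 4.22 CPM with echinomycin (0.98 ± 0.281, adjusted p = 0.00758). It read 1.36 CPM at 0 hpa and did not pass between 0 hpa and DMSO (0.61 ± 0.322, adjusted p = 0.109), and it fell with 2ME (-1.08 ± 0.323, adjusted p = 0.0187) and did not pass with IWR-1 (0.49 ± 0.287, adjusted p = 0.179).

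chad encodes chondroadherin, a leucine-rich protein that binds collagen II and integrins of cartilage cells. It was the gene whose groups separated most fully. At 0 hpa it read 5.09, 5.83 and 5.53 CPM, and with DMSO 2.53, 2.55 and 2.87 CPM. The DMSO libraries were all lower (log2 ratio -1.05 ± 0.162). Echinomycin libraries read 23.8, 21.3 and 21.6 CPM, 8.41 times the DMSO mean (3.07 ± 0.148). IWR-1 libraries read 5.90, 7.997 and 5.97 CPM, 2.50 times that mean (1.32 ± 0.155), and 2ME libraries 1.55, 1.78 and 1.14 CPM (-0.83 ± 0.186). The means fell in the order echinomycin, IWR-1, 0 hpa, DMSO and 2ME with no overlap between any pair of groups, although the lowest IWR-1 library and the highest 0 hpa library were 5.90 and 5.83 CPM, which is closer than the spread within either group.

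pappa2 resembled chad at 24 hpa but not at 0 hpa. It read 2.29, 1.70 and 1.46 CPM at 0 hpa and 3.03, 1.78 and 2.19 CPM with DMSO, which overlap (log2 ratio 0.36 ± 0.233). With echinomycin it read 16.7, 15.04 and 17.02 CPM. This was 6.96 times the DMSO mean (2.81 ± 0.189) and above every library of the other 4 groups. IWR-1 libraries, at 4.31, 6.41 and 5.97 CPM, were also all above DMSO (1.26 ± 0.197), and 2ME libraries, at 1.17, 1.32 and 1.09 CPM, all below it (-0.95 ± 0.237) and below 0 hpa.

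acan encodes aggrecan, the large hyaluronan-binding proteoglycan of cartilage, and unlike the matrilins and chad it was lowest at 0 hpa. It read 4.01, 5.46 and 5.23 CPM at 0 hpa and 10.8, 8.80 and 7.08 CPM with DMSO, with no overlap (log2 ratio 0.85 ± 0.171). Echinomycin libraries read 16.9, 17.0 and 17.2 CPM, and all lay above the DMSO libraries (0.94 ± 0.152). Their coefficient of variation, 0.765%, is smaller than counting error alone gives at 366, 391 and 346 counts, so it does not measure reproducibility. The 2ME libraries, at 9.07, 9.84 and 8.93 CPM, and the IWR-1 libraries, at 11.2, 8.55 and 12.6 CPM, overlapped DMSO (0.07 ± 0.156 and 0.28 ± 0.155). The acan ratio of 2ME to DMSO was -0.06 without DMSO replicate 3.

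The link proteins lock aggrecan and other lecticans onto hyaluronan. hapln3 was the most abundant of the 10 genes and the one member whose libraries lay wholly below DMSO with both echinomycin and IWR-1. It read 255, 278 and 254 CPM at 0 hpa, 220.4, 245 and 222 CPM with DMSO, and 243, 226 and 256 CPM with 2ME. The 0 hpa libraries stood just above the DMSO ones (log2 ratio -0.19 ± 0.0767), and 2ME overlapped both. Echinomycin libraries read 148, 158 and 168 CPM (-0.54 ± 0.0771) and IWR-1 libraries 140.2, 117 and 118 CPM (-0.87 ± 0.0776), so neither group overlapped DMSO or the other. All 15 hapln3 counts were fractional too. The classical cartilage link protein, hapln1, read 0.0456 to 0.513 CPM on 1 to 11 counts per library, and its groups mostly overlapped.

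sox9, the transcription factor, had group means from 18.2 ± 2.28 to 32.3 ± 1.43 CPM. It read 16.3, 17.5 and 20.7 CPM at 0 hpa, 22.3, 17.9 and 17.9 CPM with DMSO, and 23.5, 21.9 and 20.7 CPM with 2ME. DMSO overlapped both 0 hpa and 2ME. The 2ME libraries lay above those at 0 hpa, but only beyond the digits printed, as the nearest libraries both read 20.7 CPM. The log2 ratio of DMSO to 0 hpa, 0.09 ± 0.106, lay within its error of 0 and changed sign without 0 hpa replicate 1 or DMSO replicate 1. Echinomycin libraries read 30.7, 26.9 and 27.3 CPM (0.55 ± 0.102) and IWR-1 libraries 30.8, 32.4 and 33.6 CPM (0.74 ± 0.101). Both lay wholly above DMSO, and for this gene IWR-1 stood above echinomycin, though the nearest libraries read 30.8 and 30.7 CPM.

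comp, a pentameric glycoprotein related to the thrombospondins, read 0.0530 to 0.673 CPM on 1 to 14 counts per library. Its 3 libraries at 0 hpa held 1, 1 and 3 counts and those with DMSO 8, 14 and 3, and every compound group overlapped DMSO. No ratio of comp is read by itself, but comp is among the 8 fitted genes and so enters their median log2 ratios.

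Per transcript length the balance of the list shifted. In TPM, which divides by effective length, matn4 stood at 48.3 ± 6.37 at 0 hpa beside 56.1 ± 7.03 for hapln3, and at 4.36 ± 1.12 beside 46.5 ± 0.840 with DMSO. hapln3 therefore made up 43.3 to 48.0% of the summed TPM of the 10 genes at 0 hpa and 70.9 to 77.2% with DMSO. With echinomycin its share was 30.8 to 39.3%, beside 25.4 ± 6.94 TPM of matn4 and 17.7 ± 0.313 TPM of chad. The share was 47.5 to 54.0% with IWR-1 and 75.0 to 79.5% with 2ME.

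**Figure D2:**
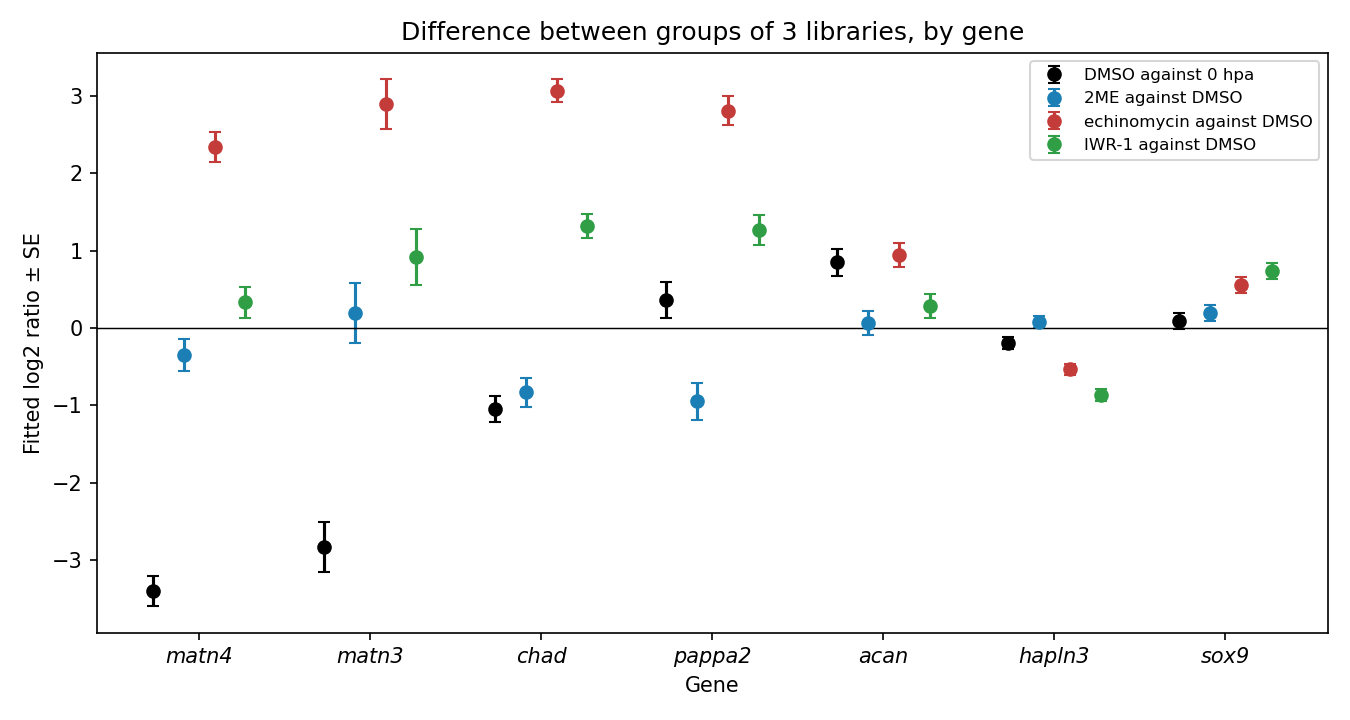
Fitted log2 ratio (vertical axis; bars, SE) of 7 genes in 4 comparisons of 3 libraries against 3 (colours); comp, with 1 to 14 counts per library, is left out. The echinomycin points of matn4, matn3, chad and pappa2 lie between 2.34 and 3.07, and hapln3 is below 0 with echinomycin and IWR-1.

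The 8 fitted genes were set beside all 18823 tested models as a description. Between DMSO and 0 hpa, 1 lay wholly higher with DMSO (acan) and 4 wholly lower (chad, hapln3, matn3, matn4), where 66.8% of all tested models had no overlap (34.2% higher, 32.6% lower). Their median log2 ratio was -0.05 beside 0.00135 for all models. With echinomycin against DMSO, 6 lay wholly higher and 1, hapln3, wholly lower, against a background of 57.2% of models without overlap (27.4% higher, 29.8% lower). The median was 1.64 beside 0.0142, with the sparsely read comp among the 8 genes. It was 2.348 when a mean of at least 10 counts was required, which leaves comp out. chad, matn3, pappa2 and matn4 stood at percentiles 99.4, 99.2, 99.1 and 98.7 of all log2 ratios. With IWR-1, 4 lay higher (chad, matn3, sox9, pappa2) and 1 lower (hapln3), against 52.2% (24.7% higher, 27.5% lower), and the median was 0.54 beside -0.0158. With 2ME, 2 lay lower (chad, pappa2) and none higher, against 45.2% (20.4% higher, 24.9% lower), and the median was 0.04 beside -0.0206. Since the comparisons chose the genes, nothing is read from these counts, and the 3 compound comparisons share the same DMSO libraries.

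The surrounding pathway genes, 123 models in 8 lists of which 112 were tested, were examined with edgeR's quasi-likelihood test and a Benjamini-Hochberg adjusted p under 0.05 over all models. These genes, too, were listed with earlier results of these data known, so their counts of calls are a description and no independent support. In regenerating tissue with DMSO more of them fell than rose against 0 hpa: 53 fell, 31 rose and 28 were not called, where 63.0% of all models were called (32.2% higher, 30.8% lower). With upper-quartile factors 55 fell and 28 rose, and over all models 5136 were higher and 6595 lower, against 6056 and 5798. Of 8 collagens, 6 fell and 2 rose. col2a1 fell from 3795 ± 104 to 1550.0 ± 36.3 CPM (log2 ratio -1.29 ± 0.0758, adjusted p = 2.63e-10), its partner in the fibril col11a1 by 0.93 ± 0.0685 (4.15e-09) and the fibril-surface collagens col9a1 and col9a2 by 1.02 ± 0.121 and 1.65 ± 0.134 (adjusted p = 1.36e-06 and 1.37e-08). The 6 collagens that fell therefore went with matn4, matn3 and chad in sign, and the 2 that rose went with acan.

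Of 18 notochord and chondrogenic regulators, 7 rose and 11 fell between 0 hpa and DMSO. The notochord homeobox gene not rose from 0.135 ± 0.0630 to 11.7 ± 1.27 CPM (6.35 ± 0.336, adjusted p = 7.79e-11), and shh rose by 0.68 ± 0.109 (3.79e-05). The 0 hpa mean of not is under the floor, so the size of its ratio is uncertain (3.13 to 6.57 over all alternatives). tbxt rose by 0.50 ± 0.166 (0.0153), a call that ended when DMSO replicate 1 (adjusted p = 0.0922) or 0 hpa replicate 1 (0.0933) was left out, over a range of 0.00781 to 0.0933 in all alternatives. The SOX9 partners sox5 and sox6 fell by 0.86 ± 0.106 and 1.27 ± 0.193 (2.18e-06 and 2.30e-05), while sox9 itself overlapped. The BMP antagonist chrd.1 fell by 3.49 ± 0.223 (7.30e-10), and runx1, a transcription factor of blood and skeletal cells, rose by 2.68 ± 0.184 (1.73e-09).

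Among 10 lecticans, link proteins and hyaluronan partners, 2 rose and 4 fell in the same comparison. The lectican bcan rose with acan, from 23.5 ± 1.49 to 65.8 ± 11.5 CPM (1.48 ± 0.124, adjusted p = 1.98e-08). The lectican vcan fell by 0.48 ± 0.133 (0.00492), the hyaluronan synthase has2 by 1.26 ± 0.136 (4.34e-07) and the hyaluronan receptor cd44 by 2.13 ± 0.153 (3.03e-09). Of 11 small leucine-rich proteoglycans, the family of chad, 1 rose and 4 fell, among them bgn (fell by 1.86 ± 0.153, 1.70e-08), lum (by 0.57 ± 0.0702, 2.22e-06) and ogn (by 0.84 ± 0.144, 7.67e-05).

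Of 14 matrilin, thrombospondin and other cartilage glycoproteins, 3 rose and 8 fell with DMSO. The COMP relative thbs4 fell from 223 ± 29.3 to 18.7 ± 1.93 CPM (-3.57 ± 0.171, adjusted p = 2.41e-11) and cilp, a cartilage protein that binds TGF-beta, by 3.47 ± 0.214 (4.64e-10). Fibronectin, fn1, rose from 323 ± 34.3 to 5387 ± 745 CPM (4.06 ± 0.120, 1.79e-13). Of 24 genes of chondroitin sulfate synthesis, the sugar chain of aggrecan, 5 rose and 10 fell. The chondroitin sulfotransferase chst11 rose by 2.57 ± 0.146 (1.79e-10), the linker enzyme b4galt7 by 0.71 ± 0.0936 (4.31e-06), and xylt2, which starts the chain, fell by 0.45 ± 0.0604 (5.51e-06).

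Among 14 aggrecan-cleaving enzymes and inhibitors, 4 rose and 7 fell. The metalloproteinases mmp13 and mmp14 rose by 3.54 ± 0.242 and 0.88 ± 0.0589 (adjusted p = 1.68e-09 and 1.27e-09), and adamts15 by 4.32 ± 0.465 from 0.156 ± 0.0278 CPM (4.27e-07). That 0 hpa level is near the floor, and the adamts15 ratio ranged from 0.983 to 4.42 over all alternatives. adamts9 did not pass (-0.08 ± 0.191, adjusted p = 0.723). In the pappalysin and IGF axis 7 of 13 rose and 3 fell. stc1, whose product blocks pappalysins in mammals, rose from 0.406 ± 0.218 to 49.5 ± 13.9 CPM (6.95 ± 0.313, 1.25e-11), the receptor igf1r rose by 1.02 ± 0.0630 (4.71e-10), and pappa, the relative of pappa2, fell by 1.72 ± 0.143 (1.93e-08), and of the 2 models named irs2, an adaptor of the receptor, gene18385 fell by 1.46 ± 0.104 (2.64e-09) and gene7596 did not pass (0.21 ± 0.0922, adjusted p = 0.0600).

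With echinomycin more of these genes rose than fell: 53 of 112 companions rose and 14 fell against DMSO, where 51.6% of all models were called (24.6% higher, 27.0% lower). Over all models 4631 were higher and 5078 lower, but 6312 and 3449 with no scaling factor and 5846 and 3907 with upper-quartile factors, and with no scaling factor 68 companions rose and 9 fell. Collagens rose in 6 of 8 and fell in 1. col2a1 rose to 3779 ± 438 CPM (1.29 ± 0.0758, adjusted p = 3.72e-09), which is near its 0 hpa mean, and col9a1, col9a2 and col9a3 rose by 1.86 ± 0.123, 2.22 ± 0.135 and 2.17 ± 0.134 (1.08e-08, 4.44e-09 and 5.25e-09).

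Of the cartilage glycoproteins 9 of 14 rose and 1 fell with echinomycin. cnmd, the chondromodulin gene of avascular cartilage, rose from 19.5 ± 2.11 to 161 ± 45.6 CPM (3.04 ± 0.162, adjusted p = 1.36e-09), beyond its 85.0 CPM at 0 hpa. thbs4 rose to 88.1 ± 1.32 CPM (2.24 ± 0.167, 3.22e-08) and fn1 fell to 2437 ± 304 CPM (-1.14 ± 0.107, 3.14e-07). Small leucine-rich proteoglycans rose in 7 of 11 and fell in 1, led by epyc, ogn and bgn (1.56 ± 0.107, 1.35 ± 0.144 and 1.26 ± 0.153, adjusted p = 1.50e-08, 1.16e-06 and 4.62e-06). Of the lectican group 5 of 10 rose and 1 fell. bcan reached 180.4 ± 22.4 CPM (1.46 ± 0.114, 4.75e-08), has2 rose by 0.91 ± 0.136 (3.51e-05) and the joint lubricant prg4 fell by 1.74 ± 0.230 (1.07e-05), while vcan did not pass (-0.23 ± 0.133, adjusted p = 0.167).

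Of the regulators 9 of 18 rose and 2 fell. tbxt and shh rose by 0.87 ± 0.151 and 0.87 ± 0.101 (adjusted p = 0.000139 and 2.78e-06), chrd.1 by 1.66 ± 0.235 (2.12e-05) and the tendon factor scx by 1.99 ± 0.316 from 0.849 ± 0.306 CPM (6.69e-05). sox5 and sox6 did not pass (0.05 ± 0.108 and 0.42 ± 0.198, adjusted p = 0.742 and 0.0867). Chondroitin sulfate genes rose in 8 and fell in 4 of 24, with the sulfate transporter slc26a2 up by 1.93 ± 0.302 (5.56e-05), the chain polymerase chsy1 up by 0.62 ± 0.112 (0.000229), the sulfotransferase chst13 down by 0.52 ± 0.110 (0.000811) and chst11 not passing (0.13 ± 0.116, adjusted p = 0.373).

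Of the cleaving enzymes and inhibitors 7 of 14 rose. timp3, an inhibitor of aggrecan-cleaving proteases, rose by 1.73 ± 0.193 (adjusted p = 1.90e-06), adamts1 by 0.59 ± 0.0836 (2.12e-05), and adamts8 by 3.30 ± 0.594 from 0.0978 ± 0.0821 CPM, which is under the floor (0.000208). In the IGF axis 2 of 13 rose and 4 fell. pappa rose by 0.89 ± 0.145 (7.84e-05) beside the higher pappa2, stc1 fell to 5.07 ± 1.29 CPM (-3.28 ± 0.205, 5.92e-09) and igf1r fell by 0.80 ± 0.0617 (4.40e-08).

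**Figure D3:**
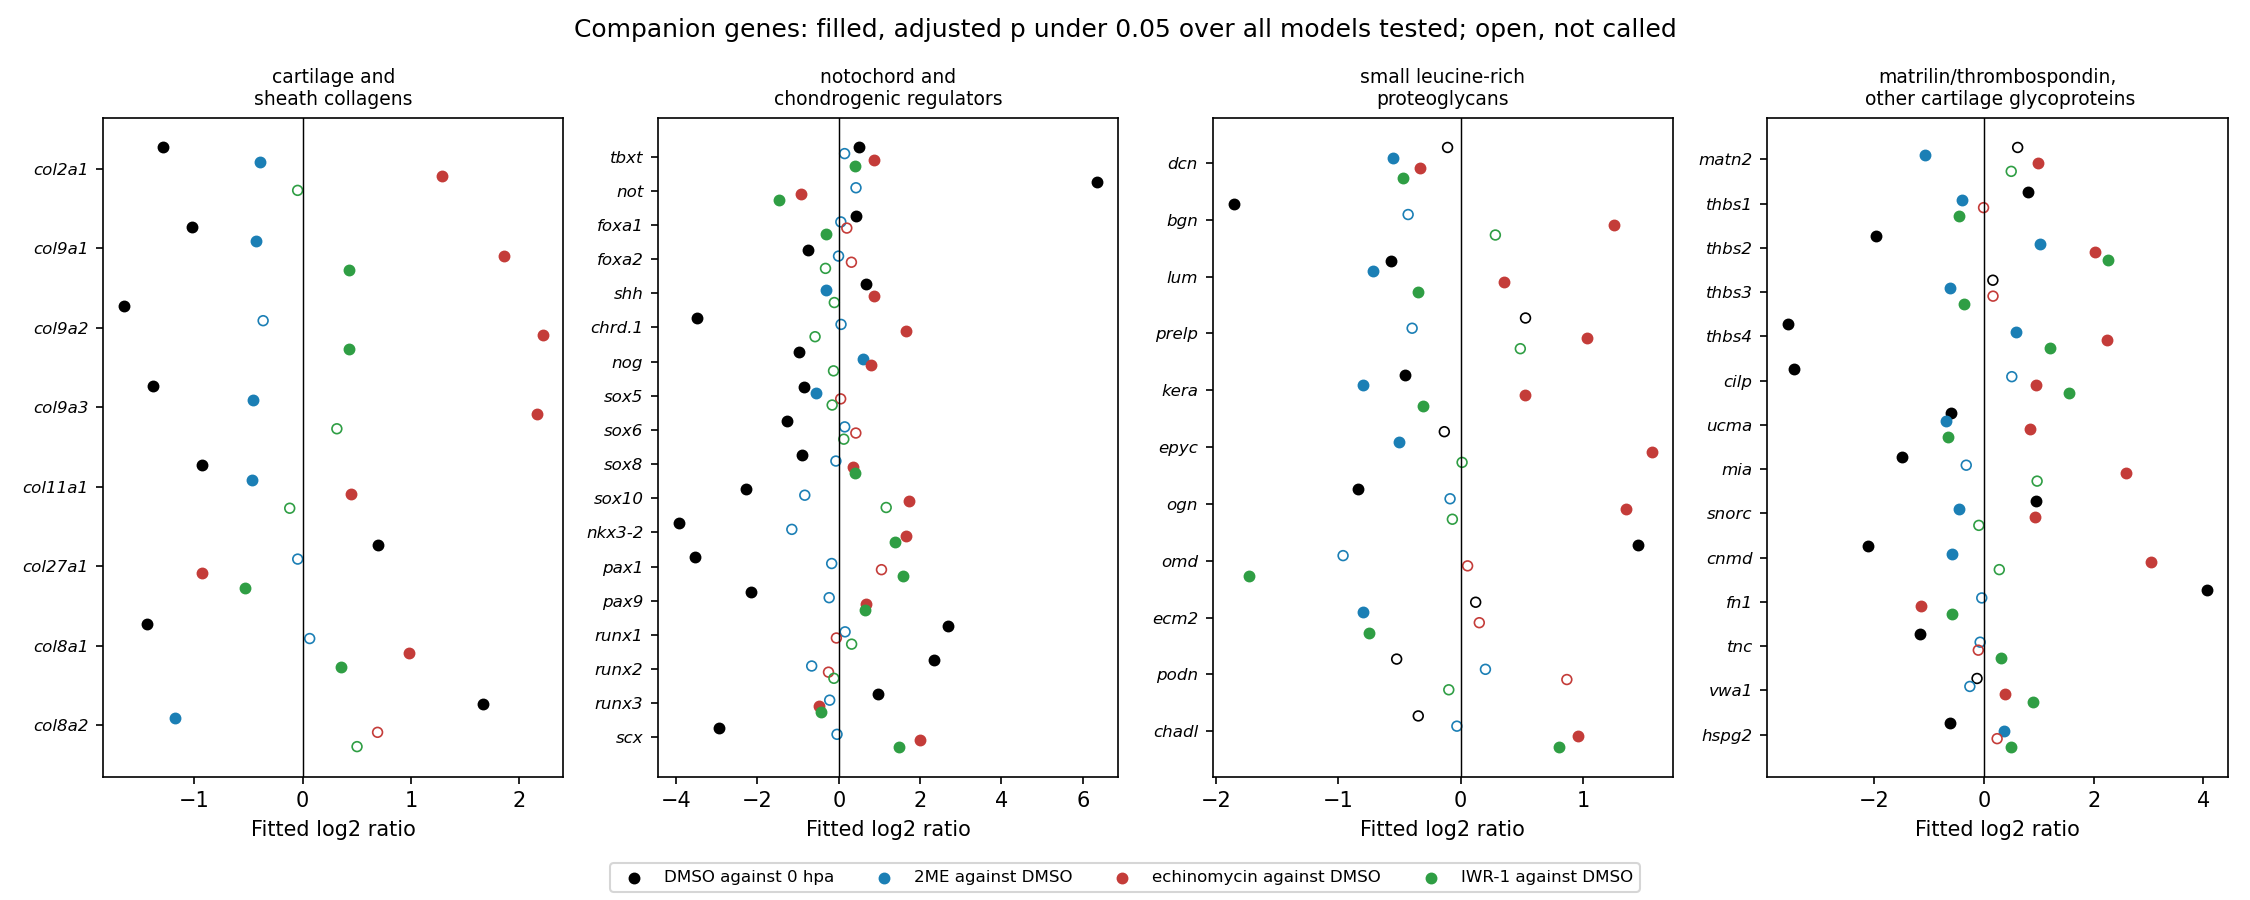
Fitted log2 ratio (horizontal axis, its own scale per panel) of every tested gene of 4 companion lists in 4 comparisons (colours); filled points passed the adjusted threshold over all models and open points did not. In the collagen panel col2a1 and the col9a genes lie left of 0 for DMSO against 0 hpa and right of 0 for echinomycin, at 1.29 to 2.22.

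With IWR-1, 38 companions rose and 25 fell, where 42.3% of all models were called (19.9% higher, 22.4% lower). The split depends on scaling, being 46 and 16 with no scaling factor (all models 5715 higher and 2297 lower, against 3748 and 4212). Collagens rose in 3 of 8 and fell in 1. col2a1 did not pass (-0.05 ± 0.0747, adjusted p = 0.658). col9a1 rose by 0.43 ± 0.120 (0.00907) and col9a2 by 0.43 ± 0.133 (0.0163, ended without DMSO replicate 2 or 3 or IWR-1 replicate 2 or 3, at adjusted p 0.0513 to 0.0718), and col27a1 fell by 0.53 ± 0.1000 (0.000489). The higher chad and pappa2 with IWR-1 thus stood beside a col2a1 that was not called.

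Of the regulators 6 of 18 rose and 3 fell with IWR-1. not fell to 4.23 ± 0.965 CPM (-1.47 ± 0.184, adjusted p = 1.16e-05), scx and the sclerotome gene pax1 rose by 1.49 ± 0.325 and 1.58 ± 0.438 from under 1 CPM (0.00149 and 0.00814), and tbxt rose by 0.41 ± 0.153 (0.0420). The tbxt call ended without DMSO replicate 2 or 3 or IWR-1 replicate 2 or 3, at adjusted p 0.0824 to 0.200, or with only the 2 groups fitted (0.0672), and ranged from 0.00801 to 0.200 over all alternatives. shh, sox5 and sox6 did not pass (-0.11 ± 0.104, -0.16 ± 0.109 and 0.12 ± 0.200, adjusted p = 0.423, 0.245 and 0.651). The lectican group had 3 up and 2 down of 10, with the hyaluronan-modifying tnfaip6 and has2 up by 0.87 ± 0.124 and 0.82 ± 0.136 (3.96e-05 and 0.000155), prg4 down by 1.14 ± 0.217 (0.000491) and vcan not passing (0.18 ± 0.132, adjusted p = 0.308).

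Small leucine-rich proteoglycans showed 1 rise and 5 falls of 11 with IWR-1: the chad relative chadl rose by 0.81 ± 0.187 (adjusted p = 0.00235), and dcn and lum fell by 0.47 ± 0.0492 and 0.35 ± 0.0701 (2.15e-06 and 0.000781). Of the glycoproteins 6 of 14 rose and 4 fell, with thbs2 up from 2.25 ± 0.871 to 10.6 ± 3.05 CPM (2.26 ± 0.280, 1.08e-05), vwa1, a small von Willebrand A domain protein, up by 0.89 ± 0.119 (2.17e-05) and thbs1 down by 0.46 ± 0.0527 (5.16e-06). Chondroitin sulfate genes rose in 8 and fell in 5 of 24. papss2, which makes the activated sulfate donor and whose loss causes a skeletal dysplasia in humans, rose from 61.8 ± 9.18 to 486 ± 125 CPM (2.98 ± 0.155, 1.38e-09). slc26a2, chst11 and xylt2 rose by 1.67 ± 0.306, 0.53 ± 0.114 and 0.36 ± 0.0599 (0.000359, 0.00143 and 0.000176). Of the cleaving group 6 of 14 rose and 2 fell, with the aggrecanase adamts4 up by 1.49 ± 0.241 (0.000124), mmp14 and mmp3 down by 0.51 ± 0.0583 and 0.63 ± 0.0906 (5.10e-06 and 4.49e-05) and adamts9 not passing (0.02 ± 0.189, adjusted p = 0.933). In the IGF axis 5 of 13 rose and 3 fell: stc1, igf1r and the adaptor irs1 fell by 2.06 ± 0.186, 0.64 ± 0.0613 and 0.69 ± 0.0778 (4.24e-07, 8.09e-07 and 3.93e-06), and pappa did not pass (0.17 ± 0.150, adjusted p = 0.373). With limma on log2(TPM + 1) the IWR-1 calls of col27a1, lum and thbs1 ended, at adjusted p 0.18, 0.512 and 0.0781.

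With 2ME, 13 companions rose and 26 fell, where 30.5% of all models were called (14.0% higher, 16.5% lower). With no scaling factor the split was 20 and 16 (all models 4546 higher and 1598 lower, against 2634 and 3115). Fewer models were called when single libraries were left out, which also lowers the power of the test. Without DMSO replicate 2, 3766 models in place of 5749 were called with 2ME, with 8 companions up. Without the same library 8249 in place of 9709 were called with echinomycin and 6134 in place of 7960 with IWR-1. For 2ME, the number of companions up was 7 without 2ME replicate 1, and the number down was 17 without DMSO replicate 1. Collagens fell in 5 of 8. col11a1 and col2a1 fell by 0.47 ± 0.0681 and 0.40 ± 0.0748 (adjusted p = 0.000119 and 0.000985), and col9a1 by 0.43 ± 0.121 (0.0130), a call lost without DMSO replicate 1 (adjusted p = 0.0906) or 2ME replicate 3 (0.0504) and ranging from 0.00330 to 0.328 over all alternatives. With limma on log2(TPM + 1) the 2ME calls of col2a1, col11a1, col9a1, sox5, shh, has2, thbs1, mmp3 and igfbp5 ended, at adjusted p 0.102 to 0.746. With no scaling factor those of col9a1, shh, has2 and igfbp5 ended, at 0.0821 to 0.248.

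Of the regulators 1 of 18 rose and 2 fell with 2ME. sox5 fell by 0.56 ± 0.111 (adjusted p = 0.00131), the BMP antagonist nog rose by 0.60 ± 0.146 (0.00536), and shh fell by 0.30 ± 0.104 (0.0358), which ended without DMSO replicate 1, 2ME replicate 1 or 2ME replicate 3, at adjusted p 0.0805 to 0.208. tbxt and sox6 did not pass (0.14 ± 0.155 and 0.15 ± 0.200, adjusted p = 0.520 and 0.620). In the lectican group has2 was the single call of 10, down by 0.43 ± 0.145 (0.0340), and it ended without DMSO replicate 1, 2ME replicate 2 or 2ME replicate 3, at adjusted p 0.106 to 0.228. vcan did not pass (-0.05 ± 0.132, adjusted p = 0.803).

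Small leucine-rich proteoglycans fell in 5 of 11 with 2ME: lum fell from 1185 ± 131 to 719 ± 3.53 CPM (-0.72 ± 0.0704, adjusted p = 2.58e-06), dcn by 0.55 ± 0.0492 (9.90e-07) and kera by 0.80 ± 0.105 (5.26e-05). Glycoproteins fell in 6 of 14 and rose in 3, with thbs1, ucma and thbs3 down by 0.40 ± 0.0527, 0.70 ± 0.0962 and 0.62 ± 0.0864 (5.40e-05, 7.98e-05 and 8.33e-05). Chondroitin sulfate genes rose in 5 and fell in 2 of 24, with papss2 up to 253 ± 3.90 CPM (2.03 ± 0.150, 1.43e-07), slc26a2 up by 2.14 ± 0.297 (8.26e-05), the chain-starting csgalnact1 up by 0.95 ± 0.164 (0.000533) and chst11 not passing (0.27 ± 0.115, adjusted p = 0.0828). Of the cleaving group 2 of 14 rose and 1 fell. mmp3 fell by 0.40 ± 0.0902 (0.00323). timp3 and mmp14 rose by 0.56 ± 0.198 and 0.16 ± 0.0580 (0.0398 and 0.0452), calls that each ended without several single libraries, at adjusted p 0.0825 to 0.161 and 0.0537 to 0.119 (for mmp14 also with no filter, 0.0740), and adamts9 did not pass (0.11 ± 0.188, adjusted p = 0.690). In the IGF axis 2 of 13 rose and 4 fell, with igf2 down by 0.77 ± 0.116 (0.000171), igfbp5 down by 0.30 ± 0.0750 (0.00666), the irs2 model gene18385 up by 0.60 ± 0.104 (0.000509), the irs2 model gene7596 not passing (-0.09 ± 0.0902, adjusted p = 0.512) and pappa not passing (0.11 ± 0.150, adjusted p = 0.617).

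The members were also set against col2a1 of the same library, a description added after the data were seen. Per 1000 CPM of col2a1, chad stood at 1.44 ± 0.0675 at 0 hpa, 1.71 ± 0.0817 with DMSO and 5.92 ± 0.376 with echinomycin, so on this scale every DMSO library lay above every 0 hpa library, the reverse of its CPM, while chad stayed higher with echinomycin. hapln3 turned in the same way, from 69.1 ± 3.30 at 0 hpa to 148 ± 10.98 with DMSO. matn4 stood at 45.7 ± 3.45, 10.7 ± 2.82 and 21.7 ± 4.34 in the same groups, and pappa2 at 0.481 ± 0.127, 1.51 ± 0.425 and 4.32 ± 0.337. For matn4, pappa2, matn3 and chad all 3 echinomycin libraries remained above all 3 DMSO libraries. acan did not separate, at 3.99 to 5.05 with echinomycin and 4.45 to 7.09 with DMSO. Against DMSO sox9 also turned over, at 12.5 ± 1.81 with DMSO and 7.51 ± 0.403 with echinomycin. The log2 ratio of col2a1 itself was -1.29 for DMSO against 0 hpa and 1.29 for echinomycin against DMSO. These turns therefore follow from the ratios given above and are no separate result.

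**Figure D4:**
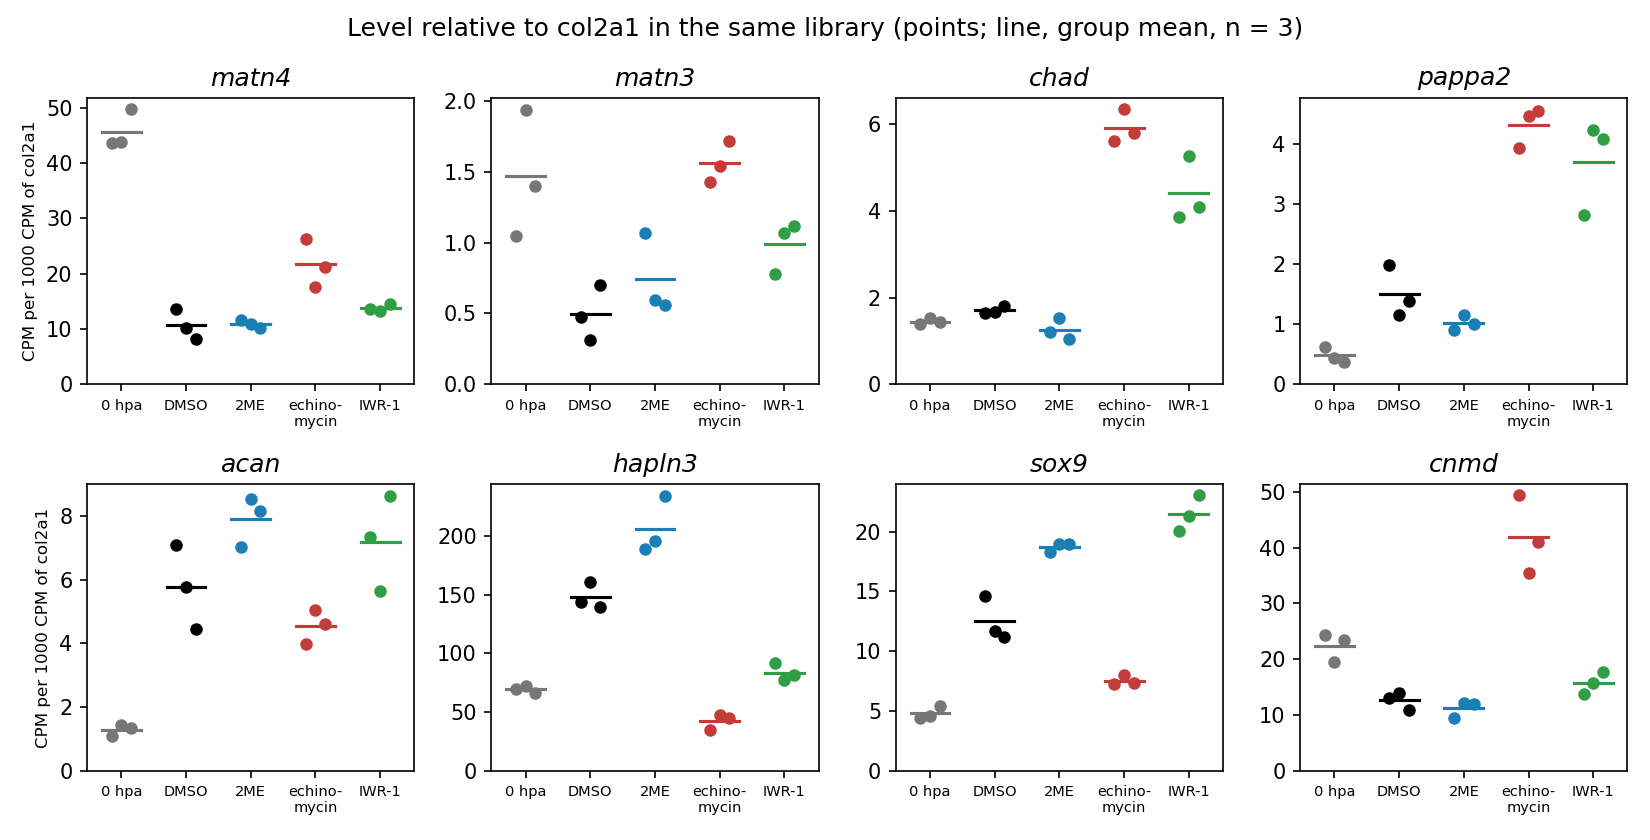
CPM of 7 of the genes and of cnmd per 1000 CPM of col2a1 in the same library (vertical axis, from 0), by group; points are libraries and lines the means of 3. chad, pappa2, matn3 and matn4 remain above DMSO in all echinomycin libraries, while acan overlaps and sox9 and hapln3 are lower.

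Across the 15 libraries the Pearson correlation of log2(CPM + 1) was highest for matn3 with matn4 and for chad with pappa2, at 0.921 each. It was 0.773 for chad with matn3, 0.760 for acan with pappa2, 0.730 for acan with sox9 and 0.690 for sox9 with pappa2. hapln3 ran opposite to sox9 (-0.925), pappa2 (-0.747) and acan (-0.635), and acan with matn3 gave 0.0335. All of these values are descriptions over libraries that share 5 groups, with no test. The models most like each gene, of 11643 ranked, were crym (0.988), aoc3 (0.987) and cav2 (0.982) for matn4, and ahnak (0.985), dsp (0.984) and cuedc1 (0.971) for matn3. For chad they were ddx17 (0.965), col17a1 (0.965) and cav3.2 (0.961), and for pappa2 emp1 (0.973), vipr2 (0.970) and tgm1 (0.969). The lectican bcan (0.972) led for acan, before cybc1 (0.962) and fmnl1 (0.953), and snai1 (0.949) led for sox9, before khnyn (0.935) and kiaa1324 (0.917). For hapln3 they were fyn (0.960), slc35a3.2 (0.956) and hacd1 (0.955). For the sparsely read comp they were ttc4 (0.850), mindy3 (0.813) and tceanc2 (0.811), which at 1 to 14 counts of comp is no finding.

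In the order of protein-coding genes of the UCB_Xtro_10.0 assembly, acan and hapln3 are neighbours, yet with echinomycin acan was higher and hapln3 lower. hapln1, read at 0.513 CPM or less, lies next to vcan, read at means of 363 to 591 CPM in the 5 groups. matn4 lies between kcns1 and sdc4. kcns1, a potassium channel subunit, fell with matn4 from 2.58 to 0.261 CPM between 0 hpa and DMSO (-3.34 ± 0.442, adjusted p = 4.74e-06) and did not pass with echinomycin (0.67 ± 0.526, adjusted p = 0.305), and sdc4, a syndecan, rose by 0.26 ± 0.0819 and 0.27 ± 0.0802 (adjusted p = 0.0100 and 0.0110). Around chad, acsf2 rose with echinomycin by 0.63 ± 0.0738 (3.20e-06) and lrrc59 fell by 0.43 ± 0.0510 (3.88e-06). These neighbours were looked up after the genes were chosen.

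Other cell types moved along with these groups. The summed CPM of 8 notochord genes, mostly col2a1, ran from 3846 to 4045 at 0 hpa, 1629 to 1679 with DMSO, 1184 to 1396 with 2ME, 3521 to 4422 with echinomycin and 1579.6 to 1624 with IWR-1. The sum follows col2a1 and not the list: with DMSO against 0 hpa, 4 of the 8 rose and 4 fell. Against DMSO, 5 rose and 1 fell with echinomycin, 2 rose and 1 fell with IWR-1, and 3 fell with 2ME. The summed CPM of 18 muscle genes ran from 27772 to 30250.1, 1879.7 to 2503, 2556 to 4246, 6091 to 7239.8 and 5223 to 5887 in the same order of groups. Of 17 tested, 16 fell with DMSO against 0 hpa. Against DMSO, 13 rose with 2ME, 15 with echinomycin and 14 with IWR-1, and none fell. Over all models 30.8% were called lower with DMSO against 0 hpa, and 14.0%, 24.6% and 19.9% higher with 2ME, echinomycin and IWR-1. Fin mesenchyme and fibroblast genes, 10 in all, summed to 30610.0 to 31515, 14869 to 16497, 11112 to 12265, 21950.4 to 23733 and 14604 to 16063 CPM. This sum is mostly col1a1 and col1a2, with means of 9502 and 4792 CPM beside 15640.4 CPM for all 10 with DMSO. Of the 10 genes, 1 rose and 9 fell with DMSO against 0 hpa. Against DMSO, 8 rose and 1 fell with echinomycin, 5 rose and 1 fell with IWR-1, and 1 rose and 2 fell with 2ME. Leukocyte genes summed to 105.5 to 116.8, 319.1 to 339.1, 184.7 to 197.0, 447.1 to 538.5 and 344.5 to 370.7 CPM, and 12 spinal cord genes to 236.6 to 243.1, 143.7 to 184.0, 132.7 to 141.3, 97.32 to 111.4 and 136.7 to 154.4 CPM. The spinal cord sum is led by stmn2 and tubb3, at 61.2 and 37.9 CPM with DMSO. Of those 12 genes, 1 rose and 8 fell with DMSO against 0 hpa. Against DMSO, 1 rose and 4 fell with 2ME, 3 rose and 6 fell with echinomycin, and 3 rose and 4 fell with IWR-1. Over all models 16.5%, 27.0% and 22.4% were called lower with 2ME, echinomycin and IWR-1. Epidermal genes ran from 8865 to 10102 CPM at 0 hpa and 12175 to 14398 at 24 hpa. The largest part was otogl2, with a mean of 7035 CPM beside 13326 CPM for the epidermal sum with DMSO. Erythroid genes ran from 3813 to 15934 CPM at 0 hpa and 172.6 to 981.7 at 24 hpa. No marker was at 0 in all libraries of a group. The part of these tissues in the levels of matn4, matn3, chad, acan and pappa2 was not tested.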

How the data were processed

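Reads were trimmed with Trim Galore 0.6.5 and quantified with kallisto, and edgeR was used, per the submitters' processing notes. No genome build and no other version is given in the sources used here. Estimated counts were deposited for 1 transcript of each gene model, per the file headers. The deposited TPM values divide them by effective length, per the file headers, and the authors' deposited CPM table scales counts to library size. Both served as descriptions or alternatives.

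These were rounded and fitted over the 15 libraries (R 4.3.3, edgeR 4.0.16) with a coefficient for each group, TMM scaling and filterByExpr (minimum count 10, total 15). The quasi-likelihood F test had 10 residual degrees of freedom at a common biological coefficient of variation of 0.0936. Benjamini-Hochberg adjustment covered 18823 models, with calls under 0.05. The fit was tested on simulated data. CPM printed here is scaled by TMM. Standard errors come from the F statistic. A count was taken as whole within 1e-06. Depth was 17.3 to 23.4 M counts per library.

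The members, the 8 companion lists, the 7 marker lists and the tests were chosen with earlier results of these data known. Named genes are all members, col2a1, col9a1, tbxt, shh, sox5, sox6, vcan, pappa, chst11 and adamts9, up to 3 called genes per list and comparison with the smallest adjusted p, and the 3 models most correlated with each tested member; neighbours, matn2, cnmd beside col2a1 and cartilage collagens at 0 were added after values were seen. Of 130 companion symbols 125 were found and of 86 marker symbols 84, through the files and a UCB_Xtro_10.0 name table. Groups came from the titles. In the IWR group the labelled treatment changes number with the replicate, and all 3 were taken as the IWR-1 of the design. Alternatives were other scalings and filters, DESeq2 1.42.0, limma 3.58.1 on log2(TPM + 1) and log2(CPM + 1), the 2 groups alone, a replicate block and leaving out each library. Replicate pairs all differed by more than sampling noise (chi-square per model 4.320 to 34.15). Figures used matplotlib 3.10.9, and tables pandas 2.3.3 and numpy 2.4.6 under Python 3.11.15.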

Additional observations from a re-analysis of the deposited data

How the results depend on the processing

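Without a scaling factor the median log2 ratio of all models shifted by 0.140 (2ME), 0.146 (echinomycin) and 0.159 (IWR-1), and with upper-quartile factors by 0.104 (echinomycin), so small differences are relative to that. With no scaling factor companions rose in 20 and fell in 16 with 2ME, fell in 9 with echinomycin and in 16 with IWR-1, and 4 members did not overlap with 2ME. With limma on log2(TPM + 1) the same values were 21, 7, 7, 12 and 4, and with limma on log2(CPM + 1) the falls were 16, 8 and 13 and the members 4. With TMM, 2 members and 45.2% of all tested models did not overlap with 2ME. That share was not computed for the other settings, so the 4 is not read as a change in the members. With no scaling factor 73.99% of all models called with 2ME were higher, against 45.8% with TMM. The members' median log2 ratio with echinomycin was 2.348 for a mean of at least 10 counts, 2.366 with only the 2 groups fitted, 1.164 with limma on TPM and 2.052 with limma on CPM, and with IWR-1 0.7666 for the 2 groups. Where comp drops out of the fit, fewer members enter the median. The limma values are differences of log2(TPM + 1) or log2(CPM + 1). The added 1 shrinks ratios at low levels, so these medians are not on the scale of the fitted log2 ratios.

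Signs turned with upper-quartile factors for sox9 between DMSO and 0 hpa (-0.004500) and with limma on TPM and CPM for thbs1 with echinomycin, which was not called (0.2072 and 0.1377). They also turned when single libraries were left out, over ranges of -0.04107 to 0.1718 for sox9 between DMSO and 0 hpa, and with 2ME of -0.2733 to 0.5972 for matn3, -0.06337 to 0.2407 for acan and -0.4074 to 0.5883 for comp, and with IWR-1 of -1.161 to 0.01281 for comp. The members' median with 2ME turned without DMSO replicate 3 (-0.2354), 2ME replicate 1 (-0.2004) or 2ME replicate 3 (-0.02562). The cause was not tested. Of the remaining member ratios none changed sign.

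Leaving out each library in turn gave 10862 to 11401 called models for DMSO against 0 hpa, 3766 to 5368 for 2ME, 8249 to 9188 for echinomycin and 6134 to 7635 for IWR-1. Companions up and down ranged from 27 to 30 and 51 to 54, 7 to 13 and 17 to 31, 46 to 58 and 13 to 14, and 28 to 37 and 21 to 25. The members' medians ranged from -0.1199 to -0.03187, -0.2354 to 0.07658, 1.513 to 1.840 and 0.4454 to 0.7033, and members without overlap from 5 to 7, 2 to 4, 7 to 8 and 5 to 6. With all libraries, 66.8, 45.2, 57.2 and 52.2% of all tested models had no overlap. Separation is easier for every model once a library is left out. The share over all models was not computed there, so nothing is read from these member counts.

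Libraries with the same replicate number did not deviate together (correlation -0.230 to 0.156 over 30 pairs, against -0.187 to 0.226 over 60 pairs of other numbers). A shared origin that moves few genes, or moves them little, would not show in these correlations, so whether the numbers pair the samples is not known. With the replicate block 11678, 5448, 9510 and 7683 models were called, and companions up and down were 31 and 53, 12 and 26, 54 and 14, and 38 and 25. Among the named companions the block ended the calls of tbxt with IWR-1 (adjusted p = 0.0605) and of mmp14 and stc1 with 2ME (0.0558 and 0.0577). Depth limits comp, hapln1 and matn1, at 14 or fewer counts per library, and matn3 with DMSO.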
